A study of Mus musculus with 12 samples.

Results

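The genes described here are 10 that handle or sense nucleotides outside cells and in the secretory pathway: 6 nucleoside diphosphohydrolases (ENTPD1, ENTPD2, ENTPD4, ENTPD5, ENTPD6 and ENTPD7), the ecto-5'-nucleotidase NT5E, the adenosine receptor ADORA1 and the ATP-gated channels P2RX4 and P2RX7. They were picked by symbol, selected on their measured values in the 2 genotypes at each site, so those values are given as a description and not as a test. Of the 10, 9 were listed among the 13957 symbols of the series, 9 of 13645 symbols above the lesion and 8 of 12337 below it. ADORA1 was listed at neither site and is not analysed here, and ENTPD2 was listed only above the lesion.

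RNA was sequenced from spinal cord of male mice that express human ApoE4, an isoform of the lipid carrier apolipoprotein E. At 4 months of age all mice received a motor-incomplete contusion at thoracic vertebra T9, and at 14 days tissue was taken just above (rostral) and just below (caudal) the lesion epicenter. The groups carried 2 normal alleles of the lipid phosphatase gene synaptojanin 1 (synj1+/+) or 1 inactive allele (synj1+/-), with 3 libraries in each of 4 groups and 12 in all. ApoE4 and the contusion were common to all 4 groups, so neither another ApoE isoform nor an uninjured cord is compared here. The comparison asks how the genes differ between the genotypes at each site.

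Extracellular ATP is released by stressed and injured cells and acts on ligand-gated P2X channels and G protein-coupled P2Y receptors. Ecto-enzymes on cell surfaces remove it stepwise: ENTPD1 (CD39) and ENTPD2 cleave ATP and ADP, and NT5E (CD73) cleaves AMP to adenosine, which acts on the adenosine receptors. ENTPD4, ENTPD5 and ENTPD6 work inside the cell or are secreted. They cleave nucleoside diphosphates, such as those left by sugar transfer in the Golgi apparatus and endoplasmic reticulum. In the spinal cord, P2RX4 and P2RX7 are best known from microglia.

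Each symbol has 1 value per group, in FPKM (fragments scaled by transcript length and library size) plus 1, which pools the 3 libraries of the group. The spread between animals cannot be computed from these values, so no difference below is set against it or called significant. The p-values and q-values of the authors' own comparison stand in the same table and were not used. A gene was counted as past the fold where its value in the group labelled synj1+/- was at least 1.5-fold higher or lower than in the group labelled synj1+/+, a log2 ratio of 0.585 or more in either direction. The percentile of a gene is the share of all symbols listed at the site, itself included, with a log2 ratio at or below its own. The tissue is bulk cord, so fewer cells of a type and less RNA per cell cannot be told apart.

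SYNJ1, the targeted gene, ran against the labels. Above the lesion its value was 1905 with the label synj1+/+ and 2404 with the label synj1+/-, and the values below were 1847 and 2593 in the same order. Where 2 values of a gene are given for a site from here on, the one labelled synj1+/+ comes first. APOE, the lipid carrier gene, was at 767 and 549 above the lesion and at 477 and 564 below it. Reads were aligned to the mouse genome, so this value counts reads placed at the mouse gene. It is not a direct measure of the human ApoE4 transcript. Directions below are given between the groups as labelled.

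The sequence of ENTPD4 is shown first because it limits what its value means. In the GENCODE annotation of GRCm38, ENTPD4 lies at chr14:69337174-69367270 on the forward strand, and a copy, ENTPD4B, lies 218 kb further on at chr14:69555424-69585520. The main transcripts of both have 3589 bases in 13 exons, with a coding length of 1839 bases and 0 differing bases. Exon 4, a coding exon of 206 bases, stands at chr14:69350703-69350908 in ENTPD4 and at chr14:69568953-69569158 in ENTPD4B, and reads the same in both.

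ENTPD4 and ENTPD4B exon 4: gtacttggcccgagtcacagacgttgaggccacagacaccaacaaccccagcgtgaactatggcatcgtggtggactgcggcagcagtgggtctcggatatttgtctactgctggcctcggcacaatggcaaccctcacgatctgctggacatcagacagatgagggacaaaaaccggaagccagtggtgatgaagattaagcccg

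Of the 8304 windows of 100 bases, the read length, in the ENTPD4 transcripts, 8304 also occur in the transcripts of ENTPD4B. No read inside these transcripts can be assigned to one of the copies by its sequence, and the values listed for each depend on how the authors' software divided the reads. The other genes share far less. ENTPD1, ENTPD5, NT5E and P2RX4 had 0 windows in common with another gene, P2RX7 had 0.334%, ENTPD6 1.93% and ENTPD7 3.90%. ENTPD2 shared 513 of its 2226 windows, or 23.0%, with annotated transcripts of NPDC1, so its value may hold reads of that gene.

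In the level of expression, the genes spanned from ENTPD6 to NT5E. FPKM is per length, so levels can be set beside each other between genes, although which neighbours in the order differ beyond the spread between animals is unknown. For the label synj1+/+ above the lesion, the order of levels in FPKM plus 1 was ENTPD6 (175), P2RX4 (133), ENTPD4 (112), ENTPD5 (84.5), P2RX7 (54.3), ENTPD1 (48.0), ENTPD2 (16.9), ENTPD7 (3.62) and NT5E (2.44). Below the lesion the order was the same but for ENTPD1 (61.5), which stood above P2RX7 (52.7). The place of ENTPD4 depends on how reads were divided with ENTPD4B, since the sum of both copies was 164 above the lesion, over P2RX4, and 169 below it, over ENTPD6 (159). Values were normalized separately for each site, so levels are not compared between sites in what follows.

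**Figure D1:**
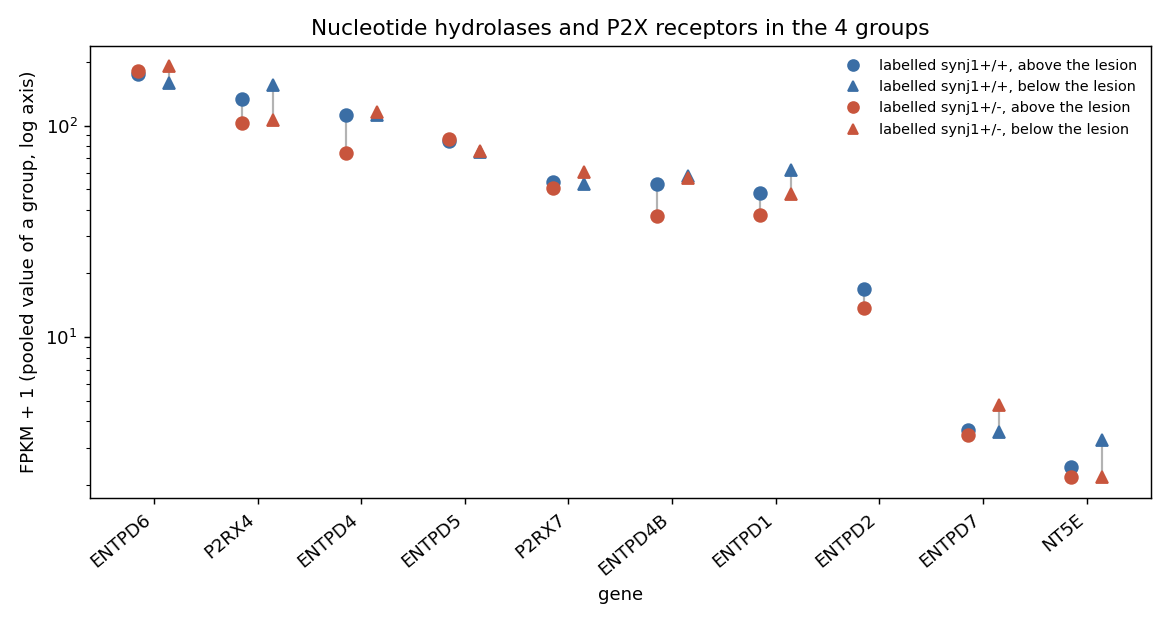
Value of each gene in FPKM plus 1 (log axis) in the 4 groups, with 1 point per group, blue for the group labelled synj1+/+ and red for synj1+/-, circles above and triangles below the lesion. Each point pools 3 libraries and has no error bar. The grey line of ENTPD4 above the lesion runs from 112 to 74.0, while its triangles below the lesion nearly coincide.

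Of the 9 genes listed above the lesion, 1 was past the fold and lower in the group labelled synj1+/- (ENTPD4), and 0 were past it and higher. Over all symbols listed there, 1.94% were past the fold and lower and 0.791% past it and higher. Below the lesion 0 of 8 were past the fold in either direction, beside 4.38% of all symbols lower and 1.16% higher. The values just outside the fold were NT5E below the lesion, 1.49-fold lower, and P2RX4 below it, 1.46-fold lower, and ENTPD4 stood just inside it at 1.51-fold. The median log2 ratio of the listed genes was -0.16 above and 0.03 below the lesion, where that of all symbols was -0.0039 and 0.014.

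ENTPD4 encodes the enzyme of Golgi and lysosomal membranes that cleaves nucleoside diphosphates, among them UDP. Its values above the lesion were 112 and 74.0, a log2 ratio of -0.60. Below the lesion the values were 112 and 116, a log2 ratio of 0.05. The gene was thus lower in the group labelled synj1+/- at one site only, at the 1.84th percentile of all symbols above the lesion and the 56.5th below it. Symbols of like level are 1 of 10 equal groups by mean value. Within its group above the lesion, ENTPD4 lay at percentile 0.44, where the 5th to 95th percentile range ran from -0.31 to 0.24.

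The copy ENTPD4B, which is not independent of it, had values of 53.1 and 37.2 above the lesion (log2 ratio -0.52) and 57.5 and 56.3 below it (-0.03). Added together as FPKM, with 1 added to the sum, both copies gave 164 and 110.2 above the lesion, a log2 ratio of -0.57 that falls just short of the fold at 1.49-fold lower. Below the lesion the sum was 169 and 171, a log2 ratio of 0.02. ENTPD4B made up 32.0% and 33.1% of the summed FPKM above the lesion and 33.7% and 32.4% below it, so the split between the copies differed little between the groups.

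The difference between the sites was largest for ENTPD4 among the 8 genes listed at both. Its log2 ratio below minus that above the lesion was 0.65, and with the copies summed it was 0.60. It was the only 1 of 8 past a 1.5-fold difference between the ratios, in the direction higher below than above that 2.29% of 12023 symbols took, while 3.38% took the other. The next were ENTPD7 at 0.49, NT5E at -0.42 and P2RX7 at 0.30. None of these differences could be tested.

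Around ENTPD4, genes within 400 kb were looked at after the values had been seen. GM16677, a long non-coding RNA on the opposite strand whose start lies 8 bases from that of ENTPD4, had values of 3.25 and 1.91 above the lesion (log2 ratio -0.77) and 2.17 and 2.36 below it (0.13). The library kit does not mark strand, so reads near the shared start cannot be divided between them. LOXL2, a lysyl oxidase beyond the copy, was at 38.1 and 30.8 above the lesion and at 31.3 and 21.0 below it. R3HCC1 and RHOBTB2 had log2 ratios of 0.22 and 0.03 above the lesion, and SLC25A37 and CHMP7, listed only above, had -0.10 and -0.05.

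The other intracellular and secreted ENTPD enzymes had no value past the fold. ENTPD5, the UDPase of the endoplasmic reticulum that assists glycoprotein folding, was at 84.5 and 86.4 above and 74.8 and 75.7 below the lesion. Its log2 ratios of 0.03 and 0.02 lay at percentiles 59.0 and 50.4, in the middle of all symbols at both sites. ENTPD6, a Golgi and secreted enzyme that favours GDP and IDP, was at 175 and 181 above the lesion, and at 159 and 190.3 below it. Its log2 ratio was 0.05 above the lesion and 0.26 below, the latter 1.2-fold higher and at percentile 87.4. ENTPD7, an intracellular nucleoside triphosphatase, was at 3.62 and 3.45 above the lesion and 3.57 and 4.76 below it. Its log2 ratio of 0.42 below the lesion, 1.34-fold higher, was at percentile 96.1 of all symbols and percentile 92.9 of symbols of like level. At these low values the added 1 matters, and on FPKM alone the log2 ratio of ENTPD7 below the lesion was 0.55.

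**Figure D2:**
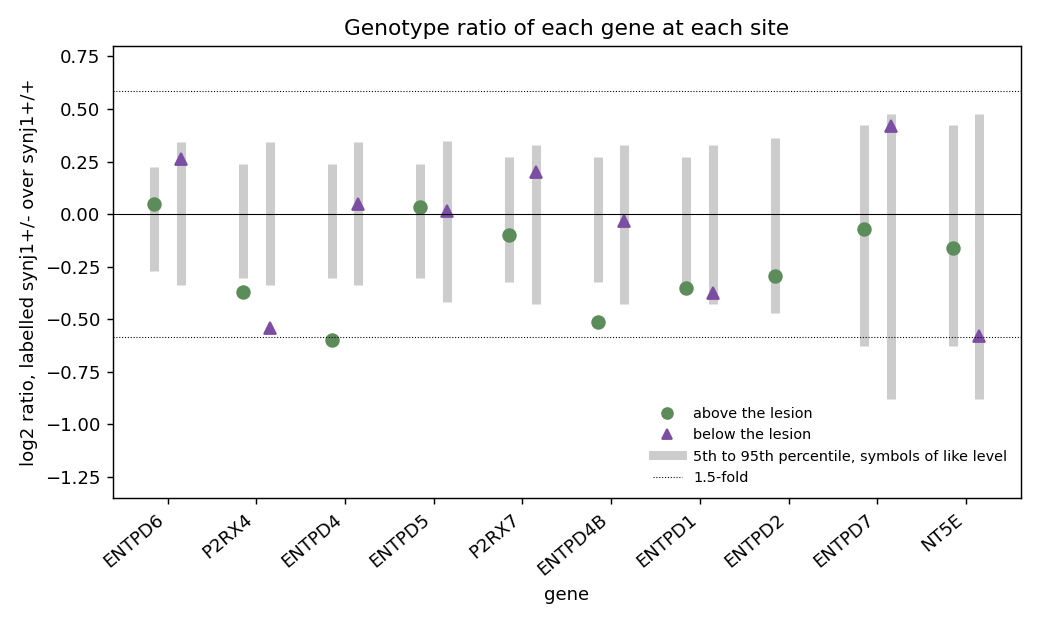
Log2 ratio of the synj1+/- value over the synj1+/+ value, as labelled, for each gene, green circles above and purple triangles below the lesion. Grey bars span the 5th to 95th percentile of symbols of like level, and dotted lines mark 1.5-fold. ENTPD4, P2RX4 and ENTPD1 above the lesion and P2RX4 below it lie under the lower end of their bars, and so does the copy ENTPD4B above it.

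Of the cell-surface enzymes among the 10 genes, ENTPD1 was lower in the group labelled synj1+/- at both sites by a like amount. ENTPD1, the main ATP and ADP hydrolase of microglia and of the vessel wall, was at 48.0 and 37.6 above the lesion and 61.5 and 47.3 below it. These were 1.28-fold and 1.3-fold lower, with log2 ratios of -0.35 and -0.38 at percentiles 6.14 and 9.30. ENTPD2, which prefers ATP and is known from astrocytes and progenitors, was at 16.9 and 13.8 above the lesion, 1.23-fold lower at percentile 8.82. The gene was not listed below the lesion.

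NT5E, which makes adenosine from AMP, had the lowest level of the 9 genes above the lesion. It was at 2.44 and 2.18 above the lesion and 3.26 and 2.18 below it. Below the lesion the log2 ratio of -0.58 put it at percentile 4.44 of all symbols and at percentile 10.8 of symbols of like level. On FPKM alone the values below were 2.26 and 1.18 and the log2 ratio was -0.94. Its position thus depends on the scale, and at this level the precision was not known.

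P2RX4, an ATP-gated channel of microglia and endosomes, was at 133 and 103 above the lesion and 155 and 107 below it. It was lower in the group labelled synj1+/- at both sites, 1.3-fold above and 1.46-fold below, with log2 ratios of -0.37 and -0.54. These lay at percentiles 5.48 and 4.91 of all symbols and at percentiles 3.0 and 1.54 of those of like level. P2RX7, the channel that opens at high ATP and drives inflammasome activation, lies beside it on chromosome 5 and ends 16.1 kb before P2RX4 starts. Its values were 54.3 and 50.8 above the lesion and 52.7 and 60.6 below it, log2 ratios of -0.10 and 0.20. The neighbouring channel genes therefore had ratios of opposite direction below the lesion.

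ENTPD1 and P2RX4 were the listed genes that lay lower at both sites by 1.28-fold or more, and their promoters are shown for that reason. The windows are the 250 bases before each start, on the forward strand, from RefSeq (GRCm38.p6), in which 9 of the 10 genes have a start. Capitals mark GAGGAA, the core that the myeloid factor PU.1 binds, searched on both strands (TTCCTC on the other). It is found in 7639 of 32851 such windows, or 23.25%. It occurs 0 times before the first ENTPD1 start, at chr19:40612116-40612365, and 2 times, without overlap, before the other, at chr19:40659520-40659769. It occurs 0 times before P2RX4, at chr5:122707294-122707543. A match is a description of letters and not a bound site.

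ENTPD1 first start: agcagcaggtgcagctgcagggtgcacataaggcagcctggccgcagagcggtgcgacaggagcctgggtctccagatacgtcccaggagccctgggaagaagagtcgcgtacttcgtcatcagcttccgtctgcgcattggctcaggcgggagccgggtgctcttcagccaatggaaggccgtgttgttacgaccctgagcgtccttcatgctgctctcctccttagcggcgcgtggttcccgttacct
ENTPD1 other start: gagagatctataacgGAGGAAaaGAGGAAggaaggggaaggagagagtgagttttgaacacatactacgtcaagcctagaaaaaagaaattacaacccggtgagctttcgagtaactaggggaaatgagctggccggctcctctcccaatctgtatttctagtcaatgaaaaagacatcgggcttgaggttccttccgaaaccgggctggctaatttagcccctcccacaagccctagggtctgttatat
P2RX4: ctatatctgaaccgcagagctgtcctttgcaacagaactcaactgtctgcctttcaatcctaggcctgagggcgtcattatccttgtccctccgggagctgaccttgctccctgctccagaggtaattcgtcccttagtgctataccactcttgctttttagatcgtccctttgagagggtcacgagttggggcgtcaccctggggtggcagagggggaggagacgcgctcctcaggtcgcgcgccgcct

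The rest of the pathway, the copy ENTPD4B included, was taken from 7 lists of 77 genes. Of these, 59 were listed above and 48 below the lesion. Above the lesion 0 were past the fold, beside 2.73% of all symbols in either direction. Below it 3 of 48 were, all lower (P2RY2, CALHM2 and APRT), beside 5.54% of all symbols in either direction, which is near the share in the lists. The median log2 ratio over the lists was -0.04 above and -0.0016 below.

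The P2Y and adenosine receptors that were listed had lower values in the group labelled synj1+/- at each site, where 51.0% of all symbols were lower above the lesion and 47.2% below it. Several of these differences were small, and few of the receptors were listed below the lesion. All 6 listed P2Y receptors were lower above the lesion, with a median log2 ratio of -0.10, and both listed below it were lower, with a median of -0.63. P2RY6, the UDP receptor that promotes phagocytosis by microglia, was at 45.5 and 31.4 above and 53.4 and 38.6 below the lesion, log2 ratios of -0.53 and -0.47. P2RY2, a receptor for ATP and UTP, was at 4.65 and 4.14 above and 6.19 and 3.60 below, the last a log2 ratio of -0.78. P2RY12, the ADP receptor of resting microglia, was at 98.6 and 93.9 above the lesion, and P2RY13, another ADP receptor, at 11.1 and 10.8. P2RY1, likewise for ADP, was at 18.1 and 16.6, and P2RY14, which senses UDP-glucose, at 22.2 and 22.0. These last 4 receptors were listed only above the lesion, where their log2 ratios ran from -0.13 to -0.02.

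Of the adenosine receptors, ADORA2A was at 9.70 and 8.41 above the lesion. ADORA2B, the low-affinity receptor, was at 11.9 and 11.0 above and 11.8 and 10.5 below. ADORA3 was at 3.98 and 3.21 above and 4.61 and 3.57 below. All 3 listed above and both listed below were lower, with medians of -0.21 and -0.27 and none past the fold. The other P2X channels listed, P2RX5 and P2RX6, were higher at both sites, with medians of 0.09 and 0.18. P2RX5 was at 20.0 and 20.2 above and 20.8 and 25.8 below.

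The 16 other nucleotide and adenosine enzymes listed above had a median of -0.04, and the 13 listed below had 0.04, with 0 past the fold. They include the copy ENTPD4B, whose log2 ratio of -0.52 was the lowest of the list above the lesion. Above the lesion 10 of the 16 were lower, and below it 4 of the 13 were. ENTPD3 was higher at both sites, at 12.4 and 14.8 above and 12.8 and 16.4 below. ALPL was too, at 25.1 and 29.2 above and 30.9 and 37.9 below, and AK1, ENPP2 and NT5C3 were higher at both sites by less. The 4 enzymes lower below the lesion, AMPD3, PNP, ENPP1 and ENTPD4B, were lower above it as well. AMPD3 was at 150 and 116 above and 151 and 121 below. PNP was at 21.9 and 17.4 above and 23.6 and 19.1 below, and ENPP1 at 17.7 and 16.0 above and 19.4 and 17.0 below. In the list of ATP release and nucleoside transport, 7 genes were listed at each site, with medians of -0.11 and -0.20. CALHM2, a channel that can release ATP, was at 3.61 and 2.87 above and 4.38 and 2.82 below, a log2 ratio of -0.63 below. The list of Golgi and endoplasmic reticulum nucleotide sugar genes, the compartment in which ENTPD4 works, had medians of -0.04 and -0.02 over 10 genes at each site. Its log2 ratios ran from -0.31 to 0.43 above the lesion and from -0.23 to 0.02 below it. SLC35B1 was the highest of the list above, at 33.5 and 45.2, and the lowest below, at 47.4 and 40.5. Purine synthesis and salvage had medians of 0.08 over 15 genes above and 0.04 over 12 below, where APRT, which salvages adenine, was at 20.4 and 13.4.

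**Figure D3:**
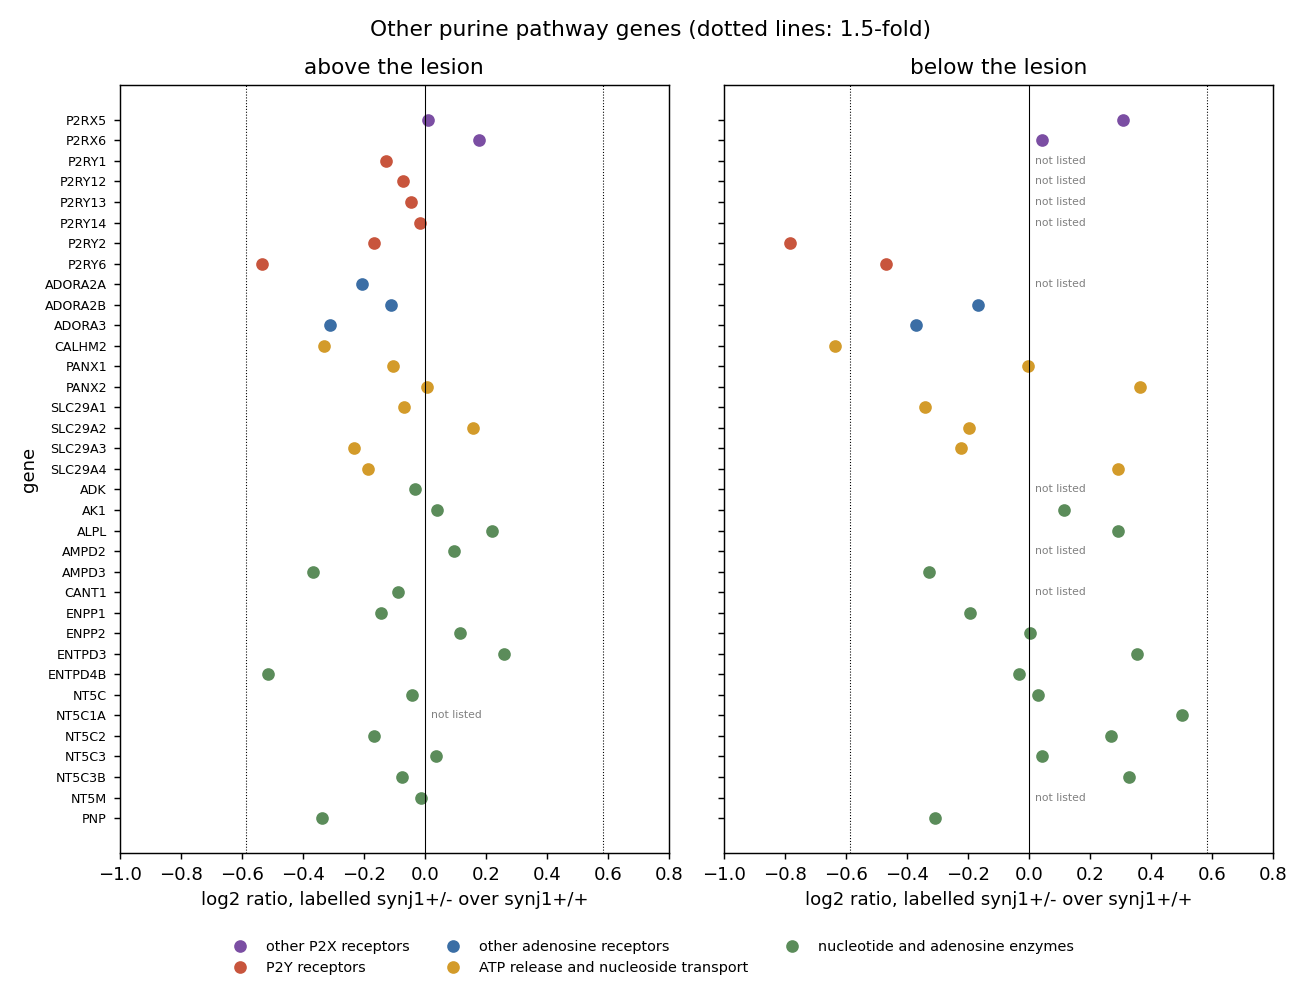
Log2 ratio of the synj1+/- value over the synj1+/+ value, as labelled, for the other purine receptors, transporters and enzymes above (left) and below (right) the lesion, coloured by list, with dotted lines at 1.5-fold. All P2Y and adenosine receptors that are listed lie left of 0, and P2RY2 and CALHM2 below the lesion lie past the fold.

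Cell type markers also differed between the groups. Of the 20 microglia markers, 17 of 20 listed above the lesion and 13 of 14 listed below it were lower in the group labelled synj1+/-, with median log2 ratios of -0.40 and -0.58. Their summed value was 3035 and 2190 above and 3160 and 2110 below, and 6 and 7 of them were past the fold. GPR34, ITGAM, P2RY12, P2RY13, SIGLECH and TREM2 were not listed below the lesion. The medians, sums and counts at the 2 sites are therefore over different genes. AIF1, SALL1 and SIGLECH were higher above the lesion, and SALL1 below it. The summed macrophage markers were 768 and 535 above, with 7 of 12 listed, and 1686 and 809 below, with 8 listed. P2RY12 and P2RY13 stand on the microglia list as well as among the receptors. No marker that was listed was at 0 FPKM, and the markers CD163, LYVE1, F13A1 and CCR2 were listed at neither site.

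Above the lesion all 9 listed genes, from -0.60 to 0.05, lay inside the range of the microglia markers, -0.71 to 0.06. The ends of that range, FCRLS and SIGLECH, stood at percentiles 1.22 and 65.9 of all symbols, so most symbols lay inside it too. Below the lesion the markers ran from -0.93 to 0.04, and ENTPD1, P2RX4, NT5E and ENTPD5 lay inside that range. Its ends, AIF1 and SALL1, stood at percentiles 1.60 and 54.1, so a large share of all symbols lay inside it as well. Above the lesion 11 of 20 markers had a lower ratio than ENTPD1, and 11 of 20 a lower ratio than P2RX4. Below it 10 of 14 were lower than ENTPD1 and 7 of 14 lower than P2RX4. The part of fewer microglia or macrophages in the values of ENTPD1, P2RX4, P2RY6 and NT5E was not tested. P2RX7 was above 15 of 20 markers above the lesion and above 14 of 14 below it. ENTPD4 lay above 3 of 20 markers above the lesion, and above 14 of 14 below it, where the microglia markers were lower too.

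Other marker lists differed as well. The 10 fibroblast markers summed to 66.8 and 56.7 above the lesion and to 562 and 92.4 below it, where 9 of 10 were past the fold and lower, the side on which NT5E was at 3.26 and 2.18. The 5 red blood cell markers summed to 253 and 1138 above the lesion, with 5 of 5 past the fold and higher, and to 634 and 830 below it. Astrocyte markers had medians of -0.16 and -0.17 with 0 past the fold, beside the ENTPD2 value of -0.30. Neuron markers had medians of 0.03 and 0.19, with 12 of 12 listed below higher, oligodendrocyte markers -0.09 and 0.11, and endothelial markers 0.04 and -0.15. Their part in the values of the nucleotide hydrolases and receptors was not tested.

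**Figure D4:**
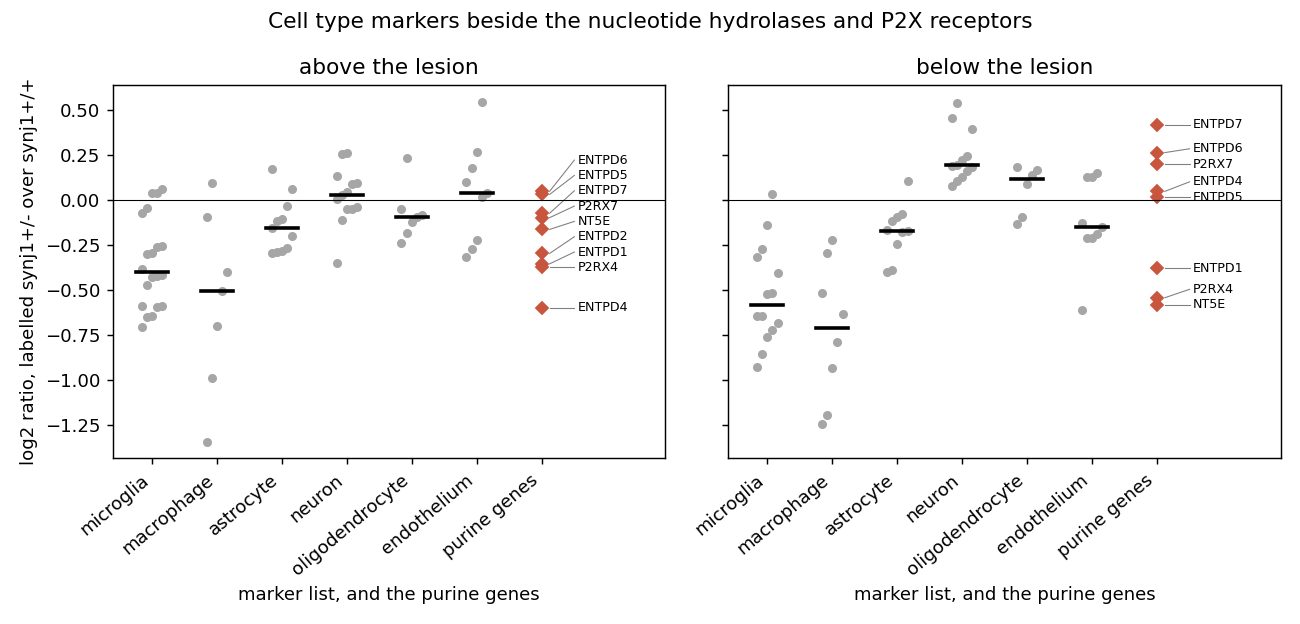
Log2 ratio of each listed marker gene (grey points, with black bars at the median of each list) beside those of the purine genes (red), above (left) and below (right) the lesion. The fibroblast and red blood cell lists are not drawn. Above the lesion all the purine genes lie within the range of the microglia points. Below it ENTPD1, P2RX4, NT5E and ENTPD5 lie within that range, and P2RX7, ENTPD4, ENTPD6 and ENTPD7 lie above it. The ends of the microglia range stand at percentiles 1.22 and 65.9 of all symbols above the lesion, and 1.60 and 54.1 below.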

How the data were processed

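The libraries, 3 in each of 4 groups from ApoE4 mice, were made with a kit that does not mark strand and sequenced as paired reads of 100 bases. The authors reduced the reads of each site at random to the smallest library of that site, aligned them and summarized them per gene with upper quartile normalization. The submitters' processing notes name STAR 2.5.4b, Cuffdiff 1.3.0 and the build GRCm38.p6. The deposited values are FPKM with 1 added, 1 pooled value per group and site. This other unit was read from the values, since the lowest is exactly 1 and 83.9% of those from 10 to under 11 carry 5 decimals, against 50.3% of those from 11 to under 12. No column holds a single library, so the depth of each library is not known here and its precision cannot be given. The authors' fold changes, p-values and q-values, in this table and in a list at p of 0.01 or less, were not used.

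From the values, log2 ratios of synj1+/- over synj1+/+ as labelled, percentiles over all symbols of a site and within 10 groups by mean value, and counts at 1.5-fold were computed. There was no test. Every member, SYNJ1, APOE and ENTPD4B were named, with list genes past the fold and all listed P2Y receptors and adenosine receptors. P2RX5, ENTPD3, ALPL, AK1, ENPP2, NT5C3, AMPD3, PNP, ENPP1, SLC35B1 and the neighbours of ENTPD4 were named after their values were seen. The members and lists were chosen with earlier results of these data known. Windows shared between transcripts came from GENCODE M21. Python 3.11.15, numpy 2.4.6, pandas 2.3.3 and matplotlib 3.10.9 were used. The calculations of ratio, fold call and percentile were checked on the deposited synj1+/+ values with known fold changes put in. No libraries or animals were simulated. Alternatives were the fold, the scale, centring, a minimum level of 10, 10 added to each value, and the rows of ENTPD4 and ENTPD4B summed.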

Additional observations from a re-analysis of the deposited data

Results flagged for a closer look

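The genotype ratio of ENTPD4 differed between the 2 sites. Above the lesion its value was lower with the label synj1+/- than with synj1+/+, at 74.0 against 112 (log2 ratio -0.60). It was close to equal below it, at 116 against 112 (0.05), a difference of 0.65 below minus above. The copy ENTPD4B, identical in transcript sequence, had log2 ratios of -0.52 and -0.03, and both copies summed had -0.57 and 0.02. The difference was not tested, since each value pools the 3 libraries of a group.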

How the results depend on the processing

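No paired analysis was possible because the table holds 1 pooled value per group, and for the same reason no replicate could be left out. Of 94 log2 ratios of the genes under the alternatives, 0 changed sign and 11 moved by 0.1 or more, all of ENTPD2, ENTPD7 or NT5E. Of 17 percentiles, 0 moved by 10 points or more. The count of genes past the fold above the lesion, 1 of 9, became 3 at a lower fold limit (the lowest tried) and 0 at 2-fold. It was 0 with 10 added to each value, and 0 with the rows of ENTPD4 and ENTPD4B summed, the last chosen after seeing the data. Over all symbols above the lesion, 2.73% were past the fold. The share was 11.6% at the lower limit, 0.696% at 2-fold, 0.535% with 10 added and 2.73% with the rows summed. Below the lesion the count of 0 of 8 became 1 with 1 subtracted from each value and 4 at the lower limit. It became 1 with the ratios centred on the median of all symbols, and in the first and last case the gene was NT5E. The shares of all symbols below the lesion were 7.41%, 19.6% and 5.62% in the same order, beside 5.54% at the main setting. The count of 1 gene of 8 whose ratio differed between the sites became 3 with 1 subtracted, 3 at the lower limit, 0 at 2-fold and 0 with 10 added. For all symbols the shares were 7.37%, 20%, 1.35% and 1.56% in the same order, beside 5.66% at the main setting. The pathway genes past the fold went from 0 to 6 of 59 above the lesion at the lower limit, where 11.6% of all symbols were past it. Below the lesion they went from 3 of 48 to 11 at the lower limit and 0 at 2-fold. They were 1 of 42 at a mean value of at least 10, and 0 with 10 added. All symbols had 19.6%, 1.47%, 4.01% and 1.55% in the same order. These counts change by the construction of each alternative. With no value per library, neither depth nor the spread between animals bounds any ratio.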
